A study of Mus musculus with 7 samples.

Results

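The enzymes of the glycolytic pathway and muscle creatine kinase were examined in recipient muscle cells through 10 genes, Gpi1, Pfkm, Pfkl, Aldoa, Pgk1, Pgam2, Eno1, Eno3, Ldha and Ckm. Every non-control probe that the array annotation assigns to one of these gene names was taken, which gave 14 probes of the 39429 on the array. All 14 were well above background on each of the 7 arrays, as were 82.1% of tested probes, so no member was lost to the filter on dim probes, which kept 21589 probes in all. The genes were divided by their product. For 4 it is the muscle isoform (Pfkm, Pgam2, Eno3 and Ckm). For 6 it is made in most tissues or mainly in liver (Gpi1, Pfkl, Aldoa, Pgk1, Eno1 and Ldha). Members of these 6, Aldoa and Ldha among them, also serve muscle, so forms used in muscle stand on both sides.

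C2C12 is a mouse myoblast line whose cells fuse into contractile myotubes. The donors were C2C12 cultures given 0.5 mmol/l palmitate, or as control BSA alone, the protein that carries it. Exosomes, small vesicles released by cells, were collected from the donors 9 h after the palmitate had been taken away. Recipient C2C12 cells then received exosomes of palmitate-treated donors (EXO-Post Palm, 3 arrays) or of BSA-treated donors (EXO-Post BSA, 4 arrays) for 24 h, so that both groups were exposed to exosomes and no untreated cells were included. The recipients are described as myotubes by the study and as myoblasts by the labels. Each array is marked as a biological replicate.

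Glycolysis splits glucose into pyruvate, and lactate dehydrogenase turns pyruvate into lactate. Creatine kinase moves phosphate between ATP and creatine, which buffers ATP in working muscle. As myoblasts become myotubes, muscle isoforms such as Pgam2, Eno3 and Ckm are switched on while ubiquitous isoforms stay in use, and this shift is a familiar sign of muscle maturation. Many of the ubiquitous genes are also known targets of the hypoxia-inducible factor.

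Several sequences show what was measured. The Ckm probe and the second of the Ckb probes come from matching stretches of the muscle and brain creatine kinase transcripts. They are shown because the comparison of these isoforms depends on how well a probe can tell them apart, and the capitals mark the bases that differ between them.
Ckm probe: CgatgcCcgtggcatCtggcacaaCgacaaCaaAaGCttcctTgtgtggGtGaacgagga
Ckb probe: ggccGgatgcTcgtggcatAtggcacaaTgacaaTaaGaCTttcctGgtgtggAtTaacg
Aligned without gaps, they share 45 of 56 overlapping bases, or 80.4%, and differ at 11. The Ckm probe of 60 bases spans chr7:20002222-20004829 on mm9 (plus strand), a stretch of 2608 bases, so it crosses at least 1 exon junction.

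The probe of Pgam2, the muscle phosphoglycerate mutase, is shown because this gene had groups that did not overlap. The probes in the 5′ and middle parts of Ldha are shown because they differed from the 3′ probe. No base is singled out by capitals.
Pgam2 probe: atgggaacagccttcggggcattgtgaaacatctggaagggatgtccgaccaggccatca
Ldha 5′ probe: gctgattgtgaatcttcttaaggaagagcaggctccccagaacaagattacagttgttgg
Ldha middle probe: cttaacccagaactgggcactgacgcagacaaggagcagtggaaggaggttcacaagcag
The Pgam2 probe spans chr11:5701822-5703040 on mm9 (minus strand), 1219 bases of genome for 60 bases of probe. The Ldha probes lie on the plus strand at chr7:54103010-54103069 and chr7:54107294-54107353, and the third, 3′ one at chr7:54110937-54110996. The letters AATAAA, the usual signal for polyadenylation, were present in 6 of the 14 probes, those of Gpi1, Eno1 and Eno3 and the 3′ probe of Ldha.

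No glycolytic or creatine kinase gene passed the test for a change with EXO-Post Palm. By limma, 0 of 14 probes passed a Benjamini-Hochberg adjusted p of 0.05, against 0.533% of all tested probes (0.463% higher and 0.0695% lower), and 0 passed before adjustment, against 10% of all. The adjusted p of the 14 probes lay between 0.554 and 0.892. With the methods' t-test, 1 probe of 14 passed before adjustment, that of Pgam2, against 9.76% of all tested probes. After adjustment 0 passed, among the 14 and among all tested probes. With 1 probe for each gene, the brightest, 4 genes had a log2 fold change above 0 and 6 below, where 47.3% and 52.7% of all tested probes did. Values are log2 signals relative to the 75th percentile of each array, and a fold change is the mean with EXO-Post Palm minus the mean with EXO-Post BSA on that scale.

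The absence of a call has to be read with the precision of 7 arrays. Standard errors (SE) of the fold changes lay between 0.206 and 0.425. For 10 of the 14 probes the 95% interval stayed within a 2-fold change in either direction. For the other 4, those of Aldoa, Pgk1, Ckm and the middle part of Ldha, its upper end passed a 2-fold increase. Lower values in these bulk RNA samples cannot tell fewer cells of a type from less RNA per cell.

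Between 48.5 and 70.3% of all probes were well above background on an array, and the 75th percentile of the signal lay between 549 and 1621. Pairs of arrays from different groups correlated at 0.947 to 0.984, a range that also held every pair from the same group.

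**Figure D1:**
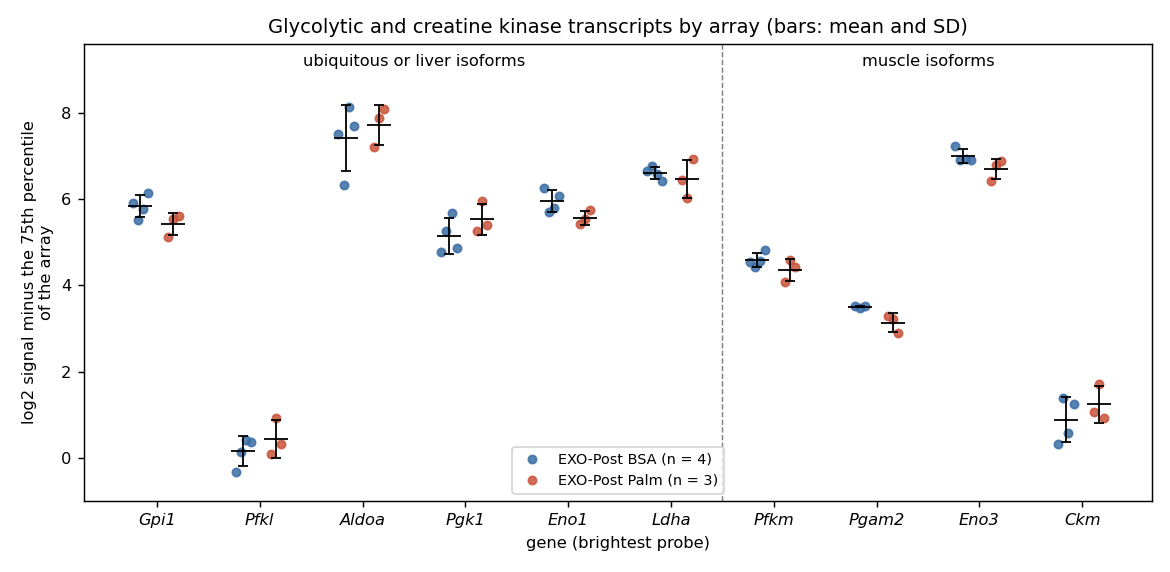
Log2 signal relative to the 75th percentile of each array (vertical axis) for the brightest probe of each of the 10 genes (horizontal axis), with points for arrays and black bars for mean and SD. In Eno3 and Pgam2 every EXO-Post Palm array lies below every EXO-Post BSA array shown, of which Pgam2 has 3. The groups of the other 8 genes overlap. Heights of different genes cannot be compared, since probes differ in brightness.

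Among the enzymes of the first steps, Gpi1, glucose-6-phosphate isomerase, stood at 5.90, 5.52, 5.78 and 6.14 on EXO-Post BSA arrays against 5.13, 5.54 and 5.62 on EXO-Post Palm arrays. The groups overlapped, with 1 EXO-Post Palm array the lowest of the 7. Its log2 fold change was -0.41 (SE 0.231, 95% interval -0.93 to 0.12, limma adjusted p = 0.606). The other Gpi1 probes gave -0.32 and -0.21. All 3 were designed to the same place, chr7:34987173-34987237 on mm9 (minus strand), and they are not independent. Counted from the 5′ end of the second-brightest probe, the brightest differs from it by C13T and the dimmest by G20T.

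Phosphofructokinase commits sugar to glycolysis, with a muscle form from Pfkm and a liver form from Pfkl. Pfkm was 4.53, 4.43, 4.56 and 4.83 on EXO-Post BSA arrays against 4.08, 4.58 and 4.42 on EXO-Post Palm arrays. Pfkl was -0.34, 0.14, 0.42 and 0.37 on EXO-Post BSA arrays against 0.08, 0.92 and 0.31 on EXO-Post Palm arrays. In both genes the groups overlapped. The fold change was -0.23 for Pfkm (SE 0.213, 95% interval -0.71 to 0.26, limma adjusted p = 0.761) and 0.29 for Pfkl (0.283, interval -0.36 to 0.93, adjusted p = 0.773). The Pfkm probe (chr15:97962713-97962772, plus strand) is printed 10 times on each array, which gives the error between spots. The SD between its spots on 1 array ran from 0.0773 to 0.384, while the SD between arrays of the averaged values was 0.172 on EXO-Post BSA arrays against 0.251 on EXO-Post Palm arrays. The array with the widest spots, EXO-Post BSA replicate 4, had 2 spots left out as uneven or as outliers and also had the highest Pfkm value. Leaving out EXO-Post Palm replicate 2 moved the value of Pfkl to 0.048, and leaving out EXO-Post BSA replicate 1 moved it to 0.13. Leaving out EXO-Post Palm replicate 1 moved that of Pfkm to -0.090. The Pfkl probe lies at chr10:77450926-77450985 (minus strand).

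Aldoa encodes aldolase A, the aldolase of muscle and of most other tissues. It was 7.51, 6.33, 8.13 and 7.71 on EXO-Post BSA arrays against 7.20, 7.88 and 8.09 on EXO-Post Palm arrays. EXO-Post BSA replicate 2 was the lowest array by a wide margin. The fold change of 0.31 had the largest standard error of the 14 probes (0.425, 95% interval -0.66 to 1.27, limma adjusted p = 0.844), and without that array it was -0.057. Its probe lies at chr7:133938816-133938875 (minus strand).

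In the later, ATP-yielding steps, Pgk1 encodes phosphoglycerate kinase (chrX:103398640-103398699, plus strand). Pgk1 was 4.77, 5.26, 5.68 and 4.86 on EXO-Post BSA arrays against 5.25, 5.95 and 5.39 on EXO-Post Palm arrays. The groups overlapped, and the fold change was 0.39 (SE 0.291, 95% interval -0.27 to 1.05, limma adjusted p = 0.695).

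Pgam2 was 3.51, 3.48 and 3.51 on 3 EXO-Post BSA arrays and 3.29, 3.23 and 2.89 with EXO-Post Palm. The spot on EXO-Post BSA replicate 3 was flagged as uneven by the scanner software and was dropped from the fit. All 3 EXO-Post Palm arrays lay below the 3 others, and the EXO-Post BSA arrays differed from each other by far less than the EXO-Post Palm arrays did. The fold change was -0.37 (SE 0.219, 95% interval -0.87 to 0.13, limma adjusted p = 0.625).

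The enolases follow, the muscle form from Eno3 and the ubiquitous form from Eno1. Eno3 was 7.23, 6.91, 6.93 and 6.92 on EXO-Post BSA arrays against 6.42, 6.80 and 6.87 on EXO-Post Palm arrays. The groups did not overlap, with EXO-Post BSA replicate 1 well above the rest and EXO-Post Palm replicate 1 well below. The fold change was -0.30 (SE 0.209, 95% interval -0.77 to 0.18, limma adjusted p = 0.677). It took the other sign with normexp background correction, at 0.056, and in the authors' processed values, at 0.19, so its direction depended on the processing. The probe lies at chr11:70475953-70476012 (plus strand).

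Eno1 was 6.27, 5.70, 5.80 and 6.08 on EXO-Post BSA arrays against 5.43, 5.54 and 5.74 on EXO-Post Palm arrays. The groups overlapped, since 1 EXO-Post Palm array exceeded 1 EXO-Post BSA array. The fold change was -0.39 (SE 0.218, 95% interval -0.89 to 0.10, limma adjusted p = 0.597). The probe lies at chr4:149622928-149622987 (plus strand). Gm5506, an annotated copy of Eno1, has probes of its own with fold changes of -0.03 and 0.37, and signal from the copy may be held in the Eno1 value.

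Of the 10 genes, 2 had every EXO-Post Palm array below every EXO-Post BSA array with a value, Eno3 and Pgam2, both muscle isoforms. This was seen in 5.87% of all tested probes. For Pgam2 only 3 EXO-Post BSA arrays had a value, and groups of fewer arrays separate more readily. No member had every EXO-Post Palm array above, which 5.4% of all tested probes had.

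**Figure D2:**
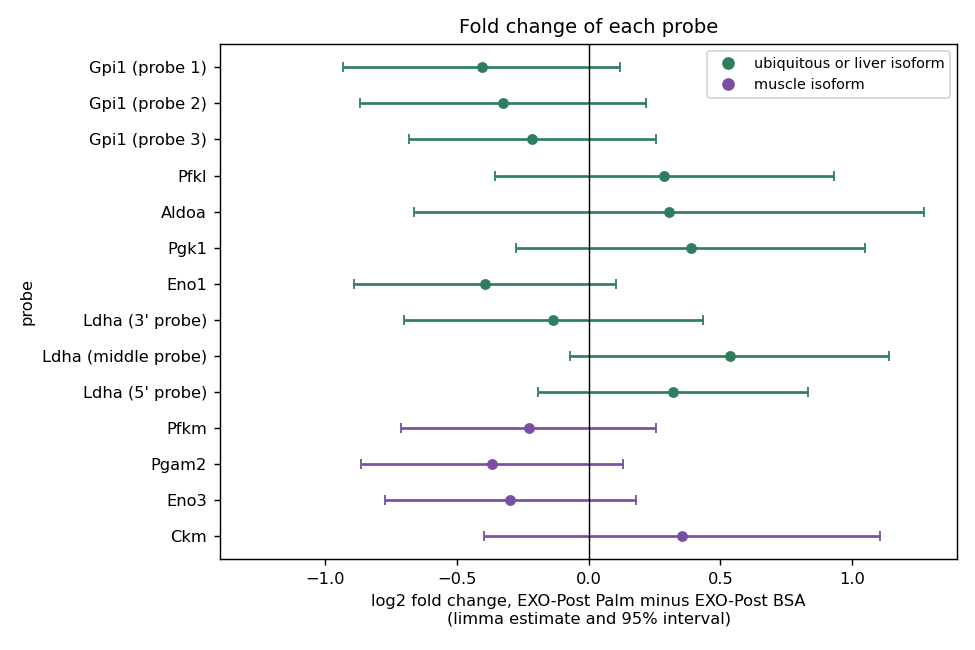
Log2 fold change between EXO-Post Palm and EXO-Post BSA (horizontal axis) for each of the 14 probes (vertical axis), with the limma estimate as a point and its 95% interval as a bar, green for ubiquitous or liver isoforms and purple for muscle isoforms. Every interval includes 0, and the estimates run from -0.41 for Gpi1 to 0.54 for the middle probe of Ldha.

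Ldha, the lactate dehydrogenase subunit that predominates in fast muscle, was measured at 3 places. The brightest probe, the 3′ one, was 6.66, 6.77, 6.58 and 6.42 on EXO-Post BSA arrays against 6.45, 6.04 and 6.93 on EXO-Post Palm arrays, for a fold change of -0.13 (SE 0.249, 95% interval -0.70 to 0.43, limma adjusted p = 0.892). The middle probe was 2.95, 3.53, 2.56 and 3.13 on EXO-Post BSA arrays against 3.76, 3.64 and 3.33 on EXO-Post Palm arrays, for a fold change of 0.54 (0.266, interval -0.07 to 1.14, adjusted p = 0.554). The 5′ probe was 1.00, 1.39, 1.27 and 1.04 on EXO-Post BSA arrays against 1.31, 1.32 and 1.85 on EXO-Post Palm arrays, for a fold change of 0.32 (0.225, interval -0.19 to 0.83, adjusted p = 0.677). The groups overlapped at each probe, and the 3′ probe lay on the other side of 0 from the internal ones.

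That difference was examined after the values had been seen. The 3′ signal minus the 5′ signal of Ldha, over probes 7927 bases apart, was 5.65, 5.38, 5.31 and 5.38 on EXO-Post BSA arrays against 5.14, 4.72 and 5.08 on EXO-Post Palm arrays. All 3 EXO-Post Palm arrays lay below the 4 EXO-Post BSA arrays, a mean change of -0.45, given without a test because the gene was picked for it. Among 2108 genes with probes at least 1000 bases apart, 5.46% had every EXO-Post Palm array lower in the same way and 2.13% every one higher. The median change over these genes was -0.13, and 62.1% of them were lower on average. Ldha stood at percentile 23.1 of their changes. By array, their median 3′ minus 5′ signal was 1.60, 1.30, 1.45 and 1.43 on EXO-Post BSA arrays. It was 1.34, 1.26 and 1.41 on EXO-Post Palm arrays, so the groups overlapped. The genes share the same arrays and are not independent. Whether their shift followed the treatment or single arrays was not tested. For Ldha the change was -0.38 on the slide that held 3 of the arrays and -0.30 on the other slide with both groups. It was 0.083 with normexp background correction and 0.11 in the authors' processed values, and there the sign was turned.

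**Figure D3:**
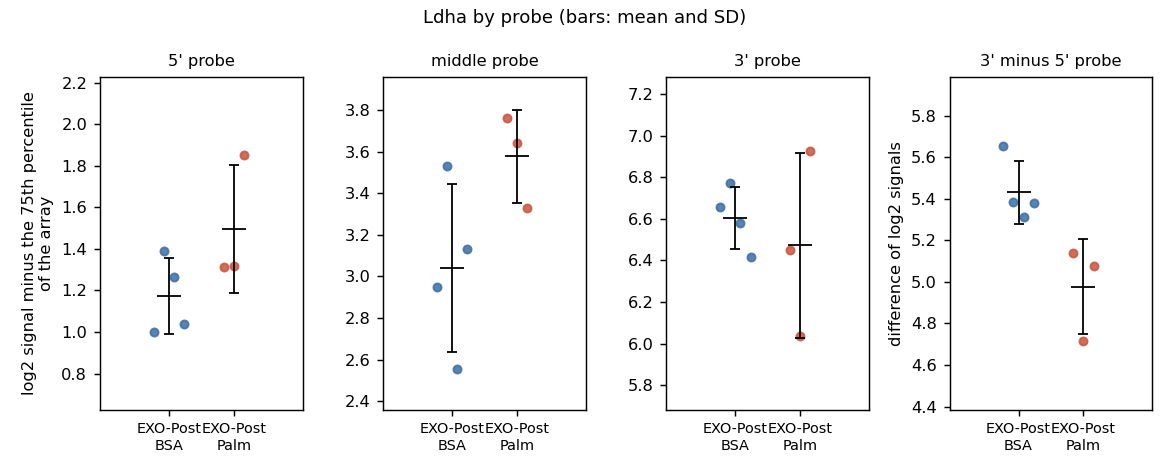
Log2 signal of Ldha relative to the 75th percentile of each array at its 5′, middle and 3′ probes, and the difference of the 3′ and 5′ probes on the same array (vertical axes, each with its own range), for EXO-Post BSA and EXO-Post Palm (horizontal axis), with points for arrays and black bars for mean and SD. The groups overlap at each probe but not in the difference, which averages 5.43 for EXO-Post BSA against 4.98 for EXO-Post Palm.

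Ckm, the muscle creatine kinase, was 0.31, 1.38, 0.57 and 1.26 on EXO-Post BSA arrays against 1.07, 1.71 and 0.92 on EXO-Post Palm arrays. The groups overlapped and the EXO-Post BSA arrays fell into a lower and a higher pair. The fold change was 0.35 (SE 0.331, 95% interval -0.40 to 1.11, limma adjusted p = 0.761). Ckm was the muscle isoform with a fold change above 0, but with slide as a fixed block the value was -0.016 and with slide as a random block 0.29. It was 0.12 without EXO-Post Palm replicate 2. On slide 1 the EXO-Post Palm array was 0.22 above the mean of the EXO-Post BSA arrays, and on slide 3 it was 0.33 below (a difference of -0.33).

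Slides 1 and 3 held arrays of both groups, so that a difference could be taken within each. By the brightest probe it had the same sign on both for Gpi1 (-0.58 and -0.52), Pfkm (-0.39 and -0.41), Pgam2 (-0.21 and -0.62), Eno1 (-0.56 and -0.33), Eno3 (-0.64 and -0.044), Aldoa (0.28 and 0.39) and Pgk1 (0.24 and 0.53). It changed sign for Ckm, the dimmest Gpi1 probe (-0.22 and 0.063), Pfkl (0.18 and -0.065) and the 3′ probe of Ldha (-0.26 and 0.51). With 3 arrays on slide 1 and 2 on slide 3, these values carry no test.

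Muscle isoforms were set against their partners within each array, which removes any scaling factor of the array. Pfkm minus Pfkl was 4.87, 4.29, 4.14 and 4.46 on EXO-Post BSA arrays against 4.00, 3.66 and 4.11 on EXO-Post Palm arrays. Every EXO-Post Palm array was lower, and the nearest arrays stood at 4.11 and 4.14. The change was -0.52 (SE 0.218) and did not pass (2-sided exact permutation test, p = 0.0571, adjusted p = 0.229 over 4 pairs). In the authors' processed values it was -0.27.

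Ckm minus Ckb was -1.97, -1.18, -1.13 and -0.82 on EXO-Post BSA arrays against -0.75, 0.00 and -1.01 on EXO-Post Palm arrays. The groups overlapped and the change was 0.69 (SE 0.384, exact permutation p = 0.114, adjusted p = 0.229). Ckb, the brain-type creatine kinase, itself had a fold change of -0.34 (limma adjusted p = 0.686). With the Ckb probe printed above in place of the brightest one, the change in the pair was 0.54 (exact permutation p = 0.229). It was 0.33 in the authors' processed values and with normexp, 0.39 with slide as a fixed block and 0.40 without EXO-Post Palm replicate 2.

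For the enolases the change of Eno3 minus Eno1 was 0.10 (SE 0.116, exact permutation p = 0.4, adjusted p = 0.4), from 0.96, 1.20, 1.13 and 0.84 with EXO-Post BSA to 0.99, 1.26 and 1.13 with EXO-Post Palm. The groups overlapped. For the mutases Pgam2 minus the ubiquitous Pgam1 was -0.88, -1.20 and -1.47 on 3 EXO-Post BSA arrays and -1.23, -1.31 and -1.97 on the EXO-Post Palm arrays. The change was -0.32 (SE 0.289, exact permutation p = 0.4, adjusted p = 0.4, where 0.1 is the smallest that 3 against 3 allow), and -0.085 without EXO-Post Palm replicate 3. Thus 0 of 4 pairs passed, but Pgam2 minus Pgam1 could not have passed with 3 against 3 arrays. For the other pairs the smallest p of the exact permutation test was 0.0286 before adjustment. With so few arrays the count does not show that the isoforms moved alike. The 4 changes did not share a sign. By its own median, the muscle group stood at -0.26 and the ubiquitous or liver group at 0.08, where the median over all tested probes was -0.02. The muscle median was 0.0090 in the authors' processed values and -0.11 with normexp, where the other group stood at 0.16 and 0.065.

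**Figure D4:**
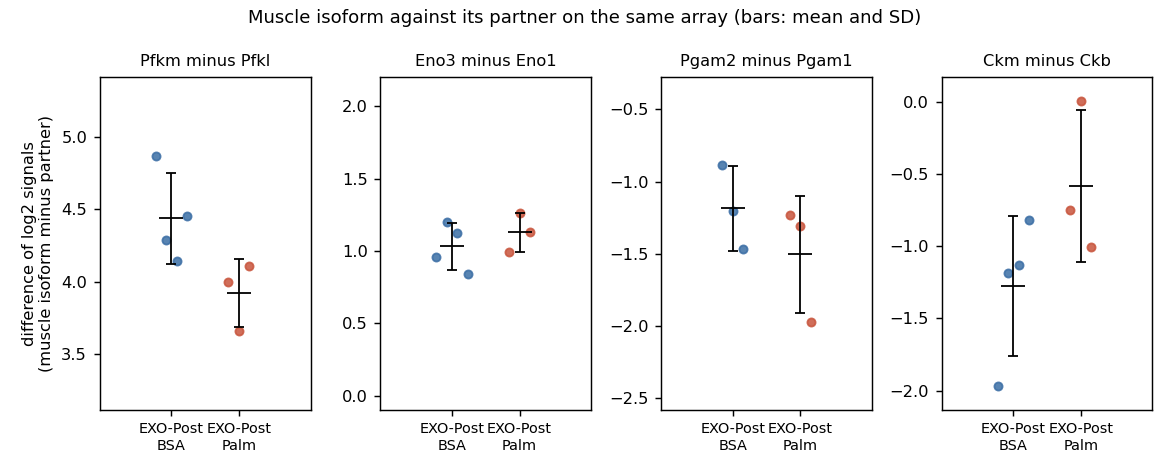
Difference of log2 signals between a muscle isoform and its partner on the same array (vertical axes, all of the same length) for EXO-Post BSA and EXO-Post Palm (horizontal axis), with points for arrays and black bars for mean and SD. The groups separate for Pfkm minus Pfkl, with the nearest arrays at 4.11 and 4.14, and overlap in the other 3 pairs.

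The 10 genes did not vary as 1 unit from array to array. Over the 7 arrays, which share the groups and the slides, Pearson's r was 0.92 between Gpi1 and Pfkm, 0.87 between Gpi1 and Eno1 and 0.86 between Eno1 and Eno3, but -0.71 between Eno1 and Pgk1. The probes that followed Ckm most closely of 17511 compared were those of Zdhhc24 (r = 0.99), Dhdds (0.99), Fam185a (0.98), Zfp238 (0.97) and Rab40c (0.97). For the 3′ probe of Ldha they were those of Rpl24 (0.96), 2610318N02Rik (0.95), Gm8253 (0.95), Morn5 (0.95) and 6230415J03Rik (0.94). None of them was a member or a gene of the pathway lists, and the correlations are a description with no test.

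The rest of the pathway was described through 5 lists, and in none of them did a gene pass an adjusted p of 0.05 by limma. Of 66 names listed, 51 genes were tested, with a median fold change of -0.16. Of these, 17 were above 0 and 34 below, where 47.3% and 52.7% of all tested probes were. Before adjustment 1 was higher and 6 were lower, against 4.85% and 5.19% of all tested probes. With the methods' t-test 6 passed before adjustment, against 9.76% of all tested probes. After adjustment 0 passed, as among all tested probes. In 4 genes every EXO-Post Palm array lay below every EXO-Post BSA array, and in 1 gene every one lay above. That was so for 5.87% and 5.4% of all tested probes. Among other enzymes of the glycolytic steps, 13 genes were tested and 5 were above 0. Hk2, the muscle hexokinase, had a fold change of -0.41 (SE 0.351, adjusted p = 0.739). Among the enzymes that set the level of the fructose bisphosphate signal and the gluconeogenic bisphosphatases, 4 genes were tested, with Pfkfb1 at 0.33 (adjusted p = 0.767) and Pfkfb4 at -0.17 (adjusted p = 0.875).

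In creatine and adenylate metabolism, 9 genes were tested and 4 were above 0. Slc6a8, the creatine transporter, was 3.96, 3.79, 3.74 and 3.65 on EXO-Post BSA arrays against 3.70, 2.79 and 2.47 on EXO-Post Palm arrays, a fold change of -0.80 (SE 0.300, limma adjusted p = 0.428). Gamt, which makes creatine by methylating guanidinoacetate, was 3.02, 2.90, 3.12 and 2.55 on EXO-Post BSA arrays against 2.30, 2.38 and 2.32 on EXO-Post Palm arrays, a fold change of -0.57 (SE 0.209, adjusted p = 0.419). Its second probe gave -0.77. The groups did not overlap for Gamt but did for Slc6a8.

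In lactate transport and pyruvate dehydrogenase, 13 genes were tested and 3 were above 0. Slc16a3, the lactate exporter of glycolytic cells, was 1.46, 1.05, 0.96 and 1.20 on EXO-Post BSA arrays against 0.16, 0.37 and 0.68 on EXO-Post Palm arrays. The groups did not overlap, with a fold change of -0.76 (SE 0.223, limma adjusted p = 0.272), and its second probe gave -0.64. Pdk1, a kinase that restrains pyruvate dehydrogenase, had a fold change of -0.68 (0.387, adjusted p = 0.609).

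Of 12 glycogen genes tested, 4 were above 0. Ppp1r3c, which targets a phosphatase to glycogen, had the largest positive value, a fold change of 0.84 (SE 0.238, limma adjusted p = 0.246). It was -2.48, -2.36, -3.10 and -2.58 in EXO-Post BSA against -1.90, -1.58 and -1.88 in EXO-Post Palm, groups that did not overlap. Pgm2 had the largest negative value, -3.64, which rested on a single array, since EXO-Post Palm replicate 3 stood at -6.47 and the other 2 at 3.93 and 3.85 (SE 2.21, adjusted p = 0.626). Pygm, muscle glycogen phosphorylase, was picked out after its values were seen. It was 2.15, 2.06, 2.25 and 2.20 on EXO-Post BSA arrays against 1.56, 1.62 and 1.55 on EXO-Post Palm arrays, groups that did not overlap, with a fold change of -0.59 (SE 0.180, adjusted p = 0.298).

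Markers of cell state were read beside these genes. Of 9 proliferation genes tested, 6 rose with EXO-Post Palm by limma, where 0.463% of all tested probes did. The summed signal of the 9, in multiples of the 75th percentile, was between 6.34 and 7.68 on EXO-Post BSA arrays. On EXO-Post Palm arrays it was between 27.0 and 57.3. Of 10 myotube genes, all tested, 0 passed and 9 had fold changes below 0, where 52.7% of all tested probes did. Their sums were 786 to 943 on EXO-Post BSA arrays against 641 to 805 on EXO-Post Palm arrays. The 5 tested genes of undifferentiated myoblasts summed to between 23.0 and 28.9 against between 19.6 and 30.3, 0 passed, and Myf5 was above background on no array. Of 6 adipocyte genes 1 was tested and of 5 endothelial genes 2 were, with none called. Of 5 macrophage genes on the array 3 were tested and 0 passed. By their brightest probes Itgam stood at -1.63 (adjusted p = 0.111), Csf1r at 0.45 and Emr1 at 0.58, and the dimmer Itgam probes at 0.16 and -0.55. The part of these differences in the values of the glycolytic genes was not tested.

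**Figure D5:**
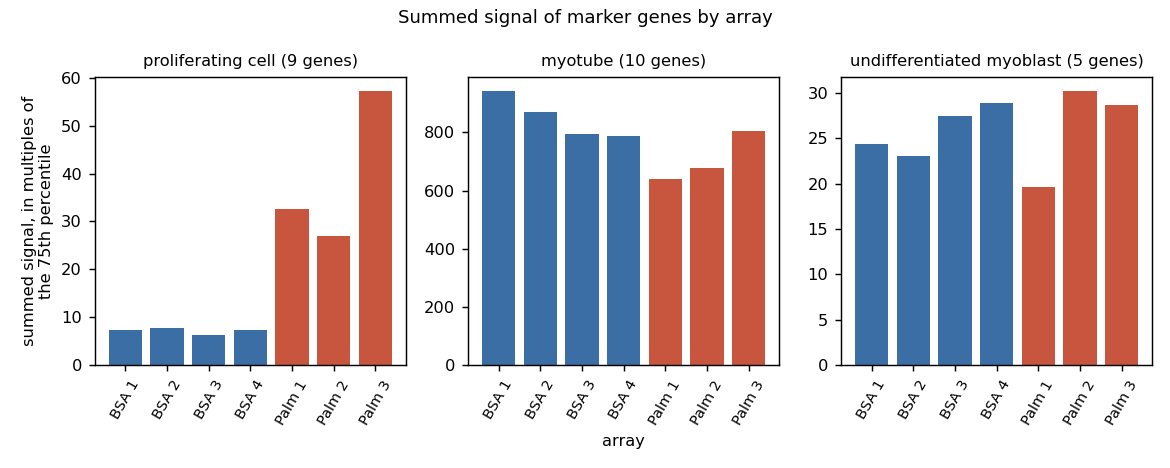
Summed signal of marker genes on each of the 7 arrays (vertical axis, in multiples of the 75th percentile of the array; horizontal axis, arrays of EXO-Post BSA in blue and EXO-Post Palm in red). The proliferation sums are 27.0 or more with EXO-Post Palm and 7.68 or less with EXO-Post BSA, while the myotube and myoblast sums overlap between the groups.

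Since many of the ubiquitous enzymes are textbook targets of the hypoxia-inducible factor, 9 such genes outside glycolysis were read beside them. By limma 0 passed and 6 had fold changes above 0, where 47.3% of all tested probes did, with a median of 0.07. Adm was furthest from 0 (1.26, adjusted p = 0.121) and P4ha1 furthest below (-0.64, adjusted p = 0.425). Before adjustment 1 was higher and 1 lower, against 4.85% and 5.19% of all tested probes.

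Promoter windows of RefSeq on GRCm38.p6, of 300 bases with 50 after the start, were available for all 10 genes in 18 windows. The E-box letters CANNTG were found in 15 of the 18 windows, at least 1 for each gene, and in 72.3% of all 32851 windows. The MEF2 site was found in 1 of the 18 windows, that of Pgam2, and in 3.19% of all windows. ACGTG on either strand, the core of the hypoxia response element, was found in 6 of the 18 windows, which belong to 4 genes, and in 19.6% of all windows. The 250 bases before the start are shown for Pgam2 (chr11:5803797-5804046, minus strand), with CANNTG and the MEF2 site in capitals, and for Ldha (chr7:46845554-46845803, plus strand), with ACGTG in capitals.
Pgam2 promoter: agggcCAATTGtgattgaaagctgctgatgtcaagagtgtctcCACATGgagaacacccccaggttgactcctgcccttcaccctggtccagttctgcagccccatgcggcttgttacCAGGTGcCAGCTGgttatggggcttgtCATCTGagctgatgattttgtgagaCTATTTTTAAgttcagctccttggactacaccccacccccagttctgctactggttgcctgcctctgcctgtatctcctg
Ldha promoter: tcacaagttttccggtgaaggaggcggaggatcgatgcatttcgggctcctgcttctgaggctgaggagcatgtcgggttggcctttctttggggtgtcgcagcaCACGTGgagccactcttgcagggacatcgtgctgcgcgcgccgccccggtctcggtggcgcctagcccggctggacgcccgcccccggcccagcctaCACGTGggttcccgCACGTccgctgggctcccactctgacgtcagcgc
Pgam2 held 5 matches to CANNTG and 1 MEF2 site. The Ldha window shown held 5 matches to ACGTG at 3 places, because CACGTG contains the letters on both strands. CACGTG is itself an E-box. The Ldha window shown was the one with the most matches, and the other one, chr7:46846832-46847131, held 0. A match is a description of the letters, not of binding.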

How the data were processed

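The authors labelled 100 ng of RNA with Cy-3 and hybridised 7 Agilent mouse arrays of 1 colour. For each array the deposited scanner output holds the processed signal, a background-subtracted and detrended intensity. The authors also deposited normalised log2 values, whose rows were joined to spots by order. The submitters' processing notes name Agilent Feature Extraction 9.1 and limma, while file headers give 10.7.3.1, and 11.5.1.1 for EXO-Post BSA replicate 3. That file lacks gene names, which were joined by probe. Probe coordinates follow the mm9 annotation of the array.

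Log2 processed signals were scaled to the 75th percentile of 43020 non-control spots per array. Flagged spots were left out and spots of 1 probe averaged. No spot was saturated. Probes entered the test when 75% or more of the arrays of either group were well above background. The number of arrays limits the precision. Groups were compared with limma 3.58.1 (R 4.3.3, data.table version 1.17.8, jsonlite 2.0.0), with Benjamini-Hochberg adjustment over 21589 probes and a threshold of 0.05. Isoform pairs were compared by exact permutation over the 35 splits of 4 against 3 arrays, or, for Pgam2, over those of 3 against 3. Only the main limma fit was tried on simulated data, drawn with independent normal noise and without slide effects. Where a gene has several probes, the brightest tested stands for it in counts.

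Members and gene lists were chosen with earlier results of these data known. Named genes were all members and pair partners, the 2 of each list furthest from 0, the markers, and the 5 probes most correlated with Ckm and with Ldha. Another gene named by this rule is not reported here. Arrays lie on 4 slides, of which 2 held both groups. Alternatives were normexp with an offset of 50 (on median intensities, since mean intensities are missing for 1 array), quantile or median normalisation, the authors' values, other filters, slide or replicate blocks, other moderation, array weights, the methods' t-test and each array left out. Same-numbered arrays did not deviate together (correlations 0.12, -0.15 and -0.15), and the main fit did not pair them. So few arrays, partly on different slides, cannot show whether the numbers mark matched batches.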

Additional observations from a re-analysis of the deposited data

Results flagged for a closer look

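By Dixon's test, applied to 64 sets of 4 EXO-Post BSA arrays, a single array stood out in 2 sets, where chance gives about 1 in 20. For Eno3 it was EXO-Post BSA replicate 1, at a log2 signal of 7.23, with the others between 6.91 and 6.93. For Adpgk, an ADP-dependent sugar kinase, it was EXO-Post BSA replicate 3, at -0.74, with the others between -0.01 and 0.12.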

How the results depend on the processing

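The count of member probes past the threshold was 0 under all 20 alternatives, and so was the count of the pathway genes. The replicate block gave 0 of both and changed no call. With the methods' t-test 0 of all 21589 tested probes passed after adjustment, so that setting says nothing about the members in particular. The share of all probes called under the other alternatives is not given here. The fold changes of the 14 probes kept their sign in 272 of 280 values. The exceptions were Aldoa without EXO-Post BSA replicate 2 (-0.057, in a range of -0.057 to 0.57 with an array left out), Ckm with slide as a fixed block (-0.016), Eno3 in the authors' values (0.19) and with normexp (0.056), and the 3′ Ldha probe in the authors' values (0.25), with normexp (0.16), with slide as a fixed block (0.070) and without EXO-Post Palm replicate 2 (0.084, in a range of -0.36 to 0.084). With slide as a random block Ckm (0.29) and this probe (-0.097) kept their sign. The cause was not tested. With an array left out, the brightest probe of every gene but Eno1 moved by over 1.5 times, to 0.12 for Ckm, -0.16 for Eno3, -0.26 for Gpi1, 0.048 for Pfkl, -0.090 for Pfkm, -0.24 for Pgam2 and 0.18 for Pgk1 on the side nearer to 0.

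The median fold change of the members, -0.18, was 0.14 in the authors' values, 0.054 with normexp and 0.0068 with every tested probe of a gene averaged, and -0.25 to -0.11 with an array left out. With the replicate block it was -0.17. The 4 isoform pairs kept their sign in all alternatives run but not their size, with 0.33 to 0.90 for Ckm minus Ckb, 0.030 to 0.27 for Eno3 minus Eno1, -0.62 to -0.27 for Pfkm minus Pfkl and -0.46 to -0.085 for Pgam2 minus Pgam1. With the replicate block, Pfkm minus Pfkl was -0.51 (exact permutation p = 0.25, the smallest possible there). The 3′ minus 5′ difference of Ldha was 0.11 in the authors' values, 0.083 with normexp and -0.53 to -0.32 with an array left out. Only 7 arrays limit what could be called. The flagged spots and the second Ckb probe were alternatives chosen after seeing the data.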
